A study of Canis lupus familiaris with 15 samples.

Results

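The 5 canine osteosarcomas with the highest and the 5 with the lowest T cell score among 15 were compared over all other genes of the array. The score of a tumor was the mean log2 value of CD3E, a signaling chain of the T cell receptor, and CD8A, a chain of the CD8 coreceptor of cytotoxic T cells, each by its brightest probeset. The 10 tumors were thus selected on measured values, and CD3E and CD8A themselves were not tested. Osteosarcoma is a malignant bone tumor of the limbs of large dogs, and the series holds 1 Affymetrix Canine 2.0 array for each of 15 primary tumors, collected before chemotherapy at amputation of the limb. The patients were client dogs, and after surgery they received doxorubicin or a platinum drug. Among the T cell rich dogs were 2 Greyhounds, 2 dogs labelled Mix and 1 Rottweiler aged 7 to 10.4 years, and among the T cell poor ones 1 each of Doberman, Golden Ret., Greyhound, Mix and Rottweiler aged 5 to 13.4 years. The dogs with scores between these sets were 1 each of Golden Ret., Greyhound and Labrador Ret. and 2 labelled Mix, aged 4.4 to 12.4 years. The study set 8 dogs whose disease free interval (DFI) was shorter than 100 days (DFI < 100) against 7 whose interval exceeded 300 days (DFI > 300), and both cohorts are pooled here. Values are log2 PLIER signals, a summary of the probes of a probeset, and differences are the mean of the T cell rich minus the mean of the T cell poor tumors.

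T cells recognize fragments of proteins that other cells present on molecules of the major histocompatibility complex (MHC), class I on nearly all cells and class II mainly on macrophages, dendritic cells and B cells. The receptor signals through the CD3 chains, cytotoxic cells kill with granzymes and perforin, and activated lymphocytes release interferon gamma and chemokines that draw in further leukocytes. In bone tumors these cells share the tissue with tumor cells that lay down matrix, with macrophages and with osteoclasts, the bone resorbing cells of the same lineage as macrophages. In a bulk tumor, fewer cells of a type and less RNA per cell cannot be told apart.

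The T cell rich tumors, in the order of the score, were those of dogs 188084 and 180119 (DFI > 300), 223986 (DFI < 100), 208513 (DFI > 300) and 153599 (DFI < 100), with scores of 5.56, 5.49, 5.47, 5.35 and 5.34. The T cell poor tumors were those of dogs 212759 (DFI < 100), 190030 (DFI > 300), and 173175, 204714 and 208911 (all DFI < 100), with scores of 4.81, 4.59, 4.54, 4.49 and 4.36. Values of single tumors are given in these orders throughout. The 5 tumors between them scored 5.22, 5.09, 5.04, 4.97 and 4.89. The lowest T cell rich tumor stood at 5.34 and the next tumor, that of dog 184844, at 5.22, while the highest T cell poor tumor stood at 4.81 and the one above it, that of dog 180223, at 4.89. The score therefore ran without a wide gap at either limit. CD3E read 6.40, 6.32, 6.86, 6.11 and 6.23 in the T cell rich and 5.53, 5.48, 5.96, 5.80 and 4.93 in the T cell poor tumors, and CD8A 4.72, 4.66, 4.08, 4.58 and 4.44 and 4.09, 3.70, 3.12, 3.18 and 3.80.

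**Figure D1:**
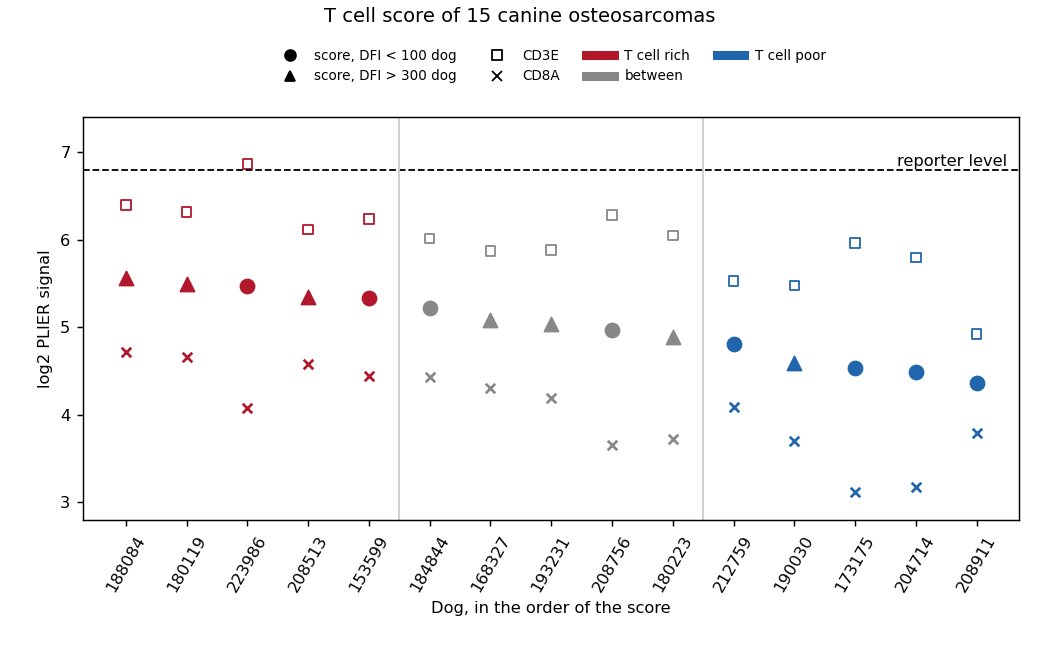
Score (filled symbols) and the log2 PLIER signals of CD3E (squares) and CD8A (crosses) on the vertical axis for the 15 tumors, ordered by score. CD3E passes the reporter level (dashed line) in 1 tumor and CD8A in 0, and the score runs from 5.56 to 4.36 without a wide gap at the limits of the groups.

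Both scoring signals were dim. The array carries 64 probesets for reporter genes absent from the dog, and in an average array 95% of them stayed under a log2 value of 6.79. This value is called the reporter level here, and a gene with a mean in the 10 tumors at or below it is called near background. CD3E was above this level in 1 tumor, that of dog 223986, and CD8A in 0. Over the 15 tumors the 2 genes had a Pearson r of 0.35 with each other, given as a description. The T cell rich set held 2 DFI < 100 and 3 DFI > 300 tumors and the T cell poor set 4 and 1 (2-sided Fisher's exact test, p = 0.524). Mean age was 8.78 ± 1.68 years (SD, n = 5) and 9.04 ± 3.19 years (p = 0.905 in a 2-sided exact permutation test over 252 splits, in which the smallest possible p is 0.00794). The log2 ratio between the 3 prime and 5 prime ends of control transcripts, which grows as RNA degrades, was 2.15 ± 0.15 and 2.16 ± 0.31 (exact permutation p = 0.968), and the median PLIER signal of an array, on the linear scale, 52.9 ± 1.18 and 50.7 ± 2.87 (exact permutation p = 0.175). Each set held 3 castrated males. Over these 5 features the smallest adjusted p of the exact tests was 0.873. Giant cell tumors numbered 1 in the T cell rich and 2 in the T cell poor set, osteoblastic tumors 3 and 3, and the only poorly differentiated tumor was the T cell rich one of dog 188084.

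Across the array no probeset passed the correction for multiple tests. In limma with Benjamini-Hochberg adjustment, 0 of 42856 probesets (0%) came under 0.05, and the smallest adjusted p was 0.447, that of SIM2 at values far under the reporter level. Before adjustment 2216 probesets came under 0.05, of which 1390 had the higher and 826 the lower mean in the T cell rich tumors. Of 15113 genes, each by its brightest probeset, 477 (3.16%) had an unadjusted p under 0.05 and a higher mean in the T cell rich tumors, and 285 (1.89%) had a lower mean. All 5 T cell rich tumors lay above all 5 T cell poor tumors for 78 genes (0.516%) and below them for 75 (0.496%). With quantile normalization the counts of genes at an unadjusted p under 0.05 were 356 higher and 461 lower and the median difference of all genes was -0.032, so that the balance of directions over all genes depended on the scaling. The median difference was 0.03 over all genes and 0.08 over the 6458 genes above the reporter level. A higher mean in the T cell rich tumors was found for 53.2% of all genes and for 60.6% of those above the reporter level. The counts of gene lists below are read against these shares, where "p under 0.05" means the unadjusted p of limma, while each p printed for a gene is adjusted over all probesets. Since the tumors were chosen by values of the same arrays, these p-values only describe differences in these tumors. They do not show that a given gene varies with the score. Chance alone brings about 5% of tests under 0.05, and the 3.16% higher and 1.89% lower genes come to about that share. For no overlap, chance alone gives 1 of 252 splits in each direction, not far under the shares of 0.516% and 0.496%.

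The other subunits of the T cell receptor complex bore out part of the label. CD3D and CD3G, partners of CD3E in the receptor, and CD2, an adhesion receptor of T and NK cells, had higher means in the T cell rich tumors, but the other 3 T cell markers set apart for this check did not differ beyond their spread. CD3D read 8.21, 3.84, 6.01, 4.50 and 5.68 in the T cell rich tumors and 3.0, 1.41, 3.39, 2.65 and 2.74 in the T cell poor ones. The groups did not overlap, the lowest T cell rich tumor being that of dog 180119, and the difference was 3.01 (standard error 0.74), with an adjusted p of 0.908. CD3G read 8.56, 4.74, 6.05, 7.76 and 5.97 against 6.13, 0.59, 3.59, 1.74 and 1.71. Here the T cell poor tumor of dog 212759 lay above 3 of the T cell rich tumors, and the difference was 3.86 (standard error 1.07), with an adjusted p of 0.908. CD2 read 8.30, 7.31, 6.47, 5.65 and 6.26 against 4.25, 3.92, 5.45, 4.47 and 6.18, a difference of 1.95 (standard error 0.57), with an adjusted p of 0.908. The T cell poor tumor of dog 208911 lay inside the T cell rich range.

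CD247, the zeta chain that carries the receptor signal, differed by -0.07 (standard error 0.21). The difference of CD5, a brake on that signal, was 0.23 (standard error 0.26), and that of CD6, an adhesion receptor of T cells, 0.14 (standard error 0.21). CD4, the coreceptor of helper T cells, and CD8B, the partner of CD8A, differed by -0.09 (standard error 0.27) and 0.23 (standard error 0.60). All 8 of these genes, CD3D, CD3G, CD2, CD247, CD5, CD6, CD4 and CD8B, had means at or below the reporter level. The mean of the 6 markers ran from 4.94 to 6.62 in the T cell rich and from 3.29 to 4.58 in the T cell poor tumors, and 4 of the 5 T cell rich tumors were among the 5 highest of the 15 by it, and 4 of the 5 T cell poor tumors among the 5 lowest. The second CD3E probeset, which the score did not use, read 7.54, 2.61, 5.30, 4.11 and 5.04 in the T cell rich and 2.49, 1.35, 3.14, -1.99 and -2.34 in the T cell poor tumors, with only the tumors of dogs 180119 and 173175 out of order. The second CD8A probeset read 2.02, -3.11, 1.90, 1.23 and 1.99 against 1.27, 0.83, 2.06, 0.33 and 1.47, with no order between the groups.

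Of 22 measured genes of the T cell receptor complex and lineage, 12 had a higher and 10 a lower mean in the T cell rich tumors, with a median difference of 0.05. An unadjusted p under 0.05 was seen for 5 with a higher mean (CD3D, CD3G, CD2, CD96, an adhesion receptor, and CD27, a costimulatory receptor of naive and memory T cells) and for 2 with a lower mean. The latter were LEF1, a transcription factor of WNT signaling that naive T cells use, with a difference of -1.48 (standard error 0.66), and TRAT1, an adaptor that binds the receptor, with -0.65 (standard error 0.27). Both read at or below the reporter level. CD96 read 4.30, 4.22, 4.40, 4.85 and 4.79 against 3.93, 2.61, 4.26, 3.91 and 3.83, a difference of 0.80, with the T cell poor tumor of dog 173175 above the lowest T cell rich one. CD27 read 6.15, 4.61, 5.06, 4.55 and 5.12 against 4.54, 4.23, 4.28, 4.66 and 4.47, a difference of 0.66. Of 20 genes of T cell receptor signaling, only FYB1, an adaptor that links the receptor to adhesion, had p under 0.05 (1.06, near background, adjusted p = 0.908). LCK, the kinase that phosphorylates CD3, stood at 7.37 in the tumor of dog 188084 and between 4.55 and 4.79 in the other T cell rich tumors, against 4.40, 4.54, 4.98, 4.33 and 4.75 in the T cell poor ones.

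Granzymes were higher on average in the T cell rich tumors, at dim signals. GZMB, which starts cell death in targets of cytotoxic cells, read 6.96, 3.79, 4.35, 4.18 and 5.86 against 3.28, 2.27, 3.78, 0.80 and 2.76. There was no overlap, by a narrow margin (3.79 against 3.78), and the difference was 2.45 (standard error 0.71, adjusted p = 0.908). GZMK, a granzyme of memory T cells, did not overlap either, at 7.36, 4.50, 4.61, 5.13 and 5.61 against 4.34, 4.16, 4.45, 3.57 and 4.01, though the lowest T cell rich tumor was only just above the highest T cell poor one. The difference was 1.34 (standard error 0.50, adjusted p = 0.908). GZMA read 7.68, 1.90, 3.29, 5.26 and 5.65 against 3.64, 1.42, -1.42, 1.43 and 2.11, a difference of 3.32 (standard error 1.16, adjusted p = 0.908), with the T cell rich tumors of dogs 180119 and 223986 inside the T cell poor range.

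NKG7, a granule protein of cytotoxic cells, stood at 11.29 in the tumor of dog 188084 and between 6.58 and 7.33 in the other 4 T cell rich tumors. The T cell poor tumors read 6.47, 6.10, 5.04, 6.53 and 7.17. The mean over the 10 tumors passed the reporter level only through the T cell rich tumors, since the T cell poor mean lay under it. The difference of 1.53 (standard error 0.86) shrank to 0.66 without the tumor of dog 188084. Perforin (PRF1) had a lower mean in the T cell rich tumors, -0.55, at values near background. Of the 14 measured cytotoxic effector genes, 12 had a higher mean in the T cell rich tumors, 3 of them with p under 0.05 and 2 with no overlap. The median difference was 0.46, and without the tumor of dog 180119 it was 0.22 and without that of dog 188084 0.26. Of 12 NK cell genes, 7 had the higher mean and 1 had p under 0.05. This was KLRD1, a receptor chain of NK and cytotoxic T cells, at 5.23, 2.77, 3.39, 3.63 and 2.75 against 1.65, 2.58, 2.72, 1.17 and 2.33. Its groups did not overlap, by a narrow margin (2.75 against 2.72) and at values far under the reporter level. NCR1, a receptor that defines NK cells, had a mean difference of -0.29 (standard error 0.22), and the whole list had a median of 0.32.

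**Figure D2:**
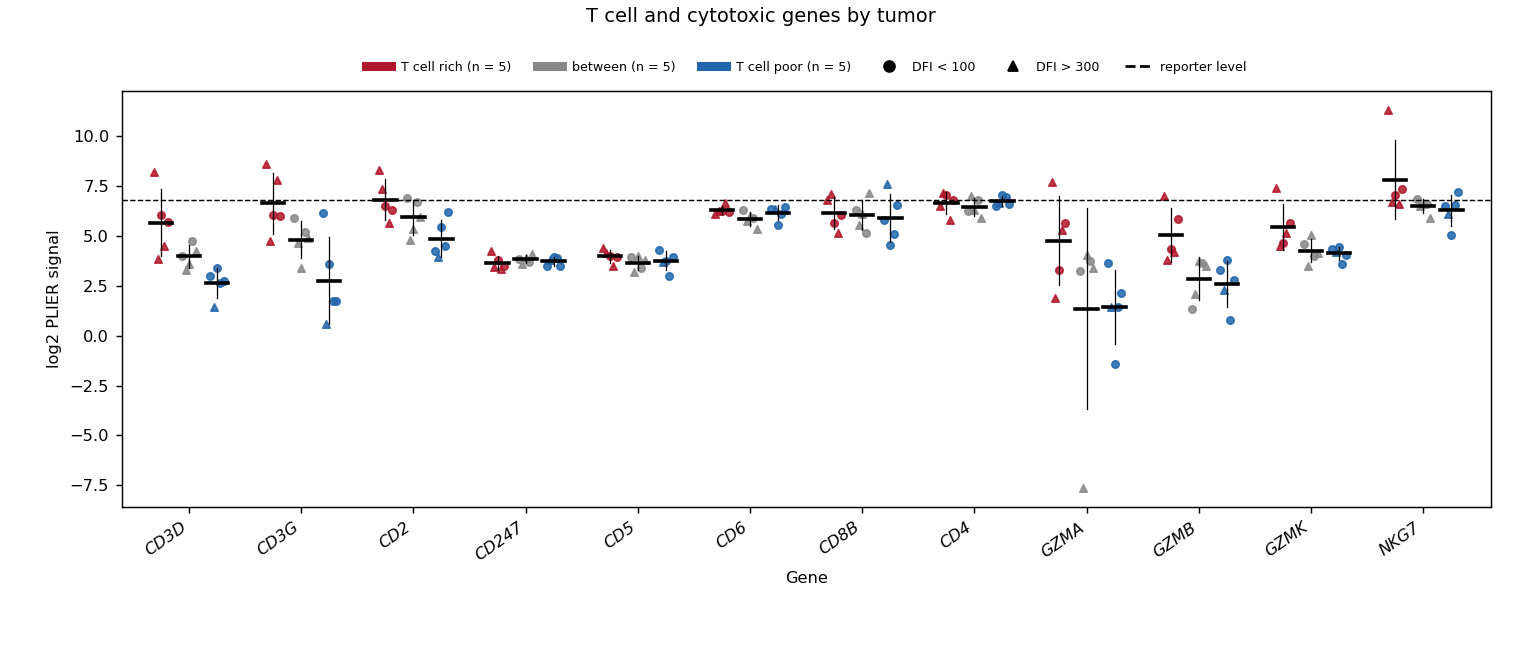
Log2 PLIER signal (vertical axis) of T cell and cytotoxic genes in the single tumors, with means (bars) and SD (vertical lines) of the T cell rich, intermediate and T cell poor tumors, n = 5 each. CD3D, GZMB and GZMK show no overlap between the T cell rich and T cell poor tumors, GZMB and GZMK by a narrow margin. CD247, CD5 and CD6 overlap throughout, and most signals lie under the reporter level (dashed line).

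MHC class II genes had the highest median difference of the 31 gene lists in the main comparison, at bright signals. The rank depended on the setting. The macrophage and monocyte list had the higher median with 7 tumors against 7 (0.76 against 0.67) and with the score from CD8A alone (1.15 against 1.01). The same held with 16 added before log2 (0.87 against 0.73) and with 4 tumors against 4 (1.19 against 1.17). It also held for the slope on the score (0.99 against 0.96) and without the tumor of dog 204714 (0.844 against 0.841). Of 16 measured genes, 13 had a higher mean in the T cell rich tumors, 8 with p under 0.05 and 2 with no overlap, and the median difference was 1.0. DLA-DMA, a chain of the DM molecule that loads peptides onto class II, read 9.25, 9.78, 8.98, 8.04 and 9.11 in the T cell rich and 7.70, 6.90, 7.51, 7.02 and 7.37 in the T cell poor tumors. All T cell rich tumors were above all T cell poor tumors, and the difference was 1.73 (standard error 0.31), a fold of 3.32, with an adjusted p of 0.908. DLA-DQB1, the beta chain of the class II molecule DQ, read 11.09, 10.41, 10.19, 9.02 and 10.59 against 8.01, 6.64, 8.64, 7.54 and 8.45, again with no overlap. Its difference was 2.41 (standard error 0.46), a fold of 5.31, with an adjusted p of 0.908.

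DLA-DQA1, the alpha chain of DQ, read 11.29, 11.17, 10.81, 9.71 and 11.40 against 9.06, 7.55, 9.18, 9.01 and 9.79, a difference of 1.96 (standard error 0.45). DLA-DMB, the second chain of DM, read 9.30, 8.95, 8.39, 7.07 and 8.79 against 7.44, 6.25, 7.00, 6.73 and 6.86, a difference of 1.64 (standard error 0.41). In both, only the T cell rich tumor of dog 208513 fell among the T cell poor ones. DLA-DRA and HLA-DRB1, the chains of the class II molecule DR, differed by 1.24 (standard error 0.54) and 1.35 (standard error 0.48), and CD74, the invariant chain that escorts class II, by 1.30 (standard error 0.59), which missed 0.05 before adjustment. The remaining members with p under 0.05 were DLA-DOB, a chain that holds DM in check (1.08), and RFX5, a factor that binds class II promoters (0.60). CIITA, the activator that switches class II genes on, stood near the reporter level, with means of 6.74 ± 0.18 and 6.87 ± 0.29 (SD, n = 5 each). Within the DFI < 100 cohort (2 T cell rich and 4 T cell poor tumors) DLA-DMA differed by 1.64 and DLA-DQB1 by 2.23, and within the DFI > 300 cohort (3 and 1) by 2.12 and 3.54. Leaving out the tumor of dog 208513 gave a list median of 1.25, and leaving out that of dog 190030, the lowest for DLA-DQB1, gave 0.74.

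Class I presentation differed less. Of 18 measured genes, 14 had a higher mean in the T cell rich tumors and 2 had p under 0.05, with a median of 0.43. These 2 were PSMB8 and PSMB10, catalytic subunits of the immunoproteasome, which cuts proteins into peptides for class I. PSMB8 read 9.76, 9.24, 8.75, 7.27 and 9.13 against 9.02, 6.44, 7.37, 6.68 and 7.68, a difference of 1.39 (standard error 0.57), and PSMB10 differed by 0.90 (standard error 0.34). The third such subunit, PSMB9, differed by 1.08 (standard error 0.52) and missed 0.05 before adjustment. The class I heavy chain DLA88 and B2M, the light chain of class I, were bright in both groups, with differences of 0.44 (standard error 0.46) and 0.21 (standard error 0.26).

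Chemokines that draw in T cells were higher on average in the T cell rich tumors. CCL4, a chemokine that T cells, NK cells and macrophages release, read 8.69, 8.05, 7.60, 6.82 and 7.19 in the T cell rich and 4.18, 3.03, 5.45, 4.42 and 3.14 in the T cell poor tumors. All T cell rich tumors passed the reporter level and none of the T cell poor ones did. By its mean over the 10 tumors CCL4 counts as near background, so no fold is given. Its means were 3.62 (standard error 0.51) apart, and limma gave an adjusted p of 0.705, the lowest adjusted p among the genes described here other than SIM2. CCL5, a chemokine that draws in T cells, read 10.46, 6.70, 8.56, 8.34 and 9.22 against 6.02, 4.36, 7.63, 5.81 and 7.17. It overlapped through the T cell rich tumor of dog 180119 and the T cell poor tumors of dogs 173175 and 208911, with a difference of 2.46 (standard error 0.76, adjusted p = 0.908). The T cell poor means of CCL5 and CXCL10 lay under the reporter level. CXCL10, a ligand of CXCR3 on activated T cells that interferon gamma induces, read 10.62, 5.09, 10.55, 8.18 and 9.96 against 5.30, 4.21, 7.53, 5.27 and 3.56.

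For CXCL10 the difference was 3.71 (standard error 1.12, adjusted p = 0.908), and the T cell rich tumor of dog 180119 again read like a T cell poor one. Of 36 measured chemokines and receptors, 26 had a higher mean in the T cell rich tumors, 9 with p under 0.05 (3.16% of all genes) and 1 with no overlap, and 0 had p under 0.05 with a lower mean. The other members with p under 0.05 included CCL2, which attracts monocytes (2.17, standard error 0.95), CXCL16 (0.94) and its receptor CXCR6 (0.64), and CXCR3 (0.76), the last 2 near background. The list's median was 0.24. Over its 11 members above the reporter level it was 0.97, against 0.08 for all genes above that level.

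**Figure D3:**
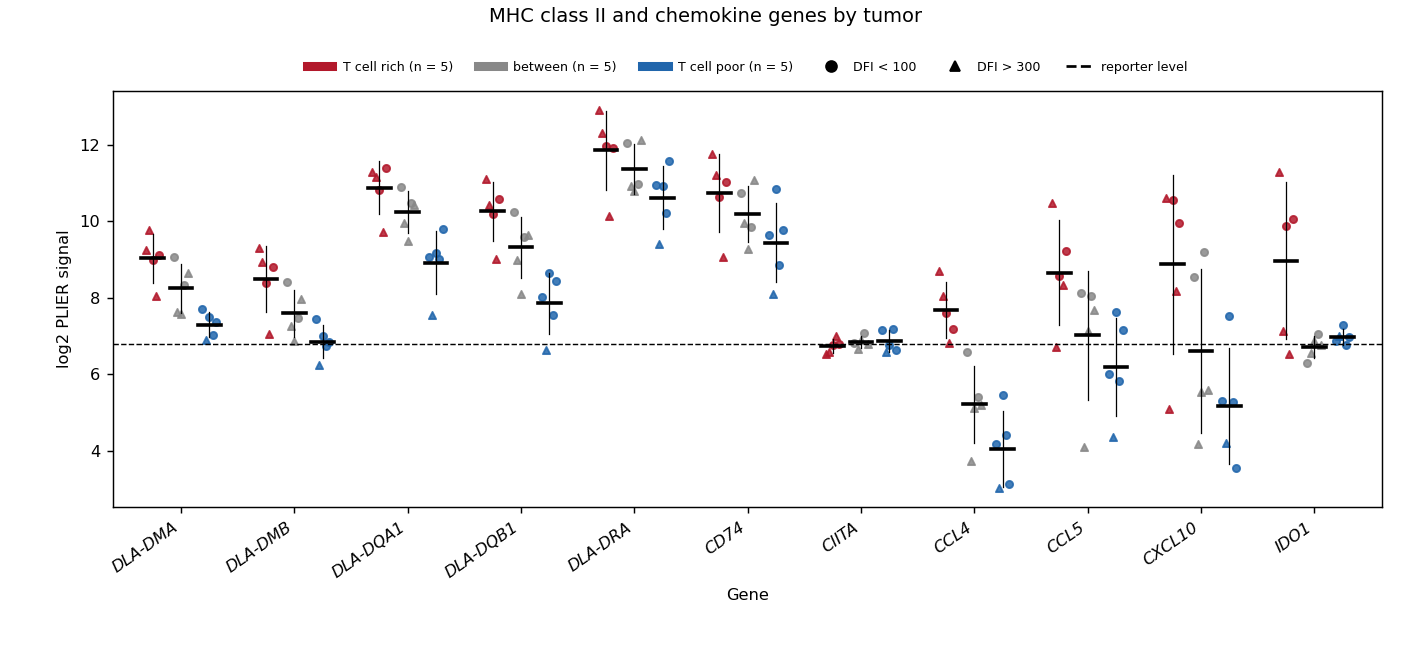
Log2 PLIER signal (vertical axis) of MHC class II and chemokine genes and IDO1 in the single tumors, with means (bars) and SD (vertical lines) of the T cell rich, intermediate and T cell poor tumors, n = 5 each. DLA-DMA, DLA-DQB1 and CCL4 show no overlap between the T cell rich and T cell poor tumors, and CIITA lies at the reporter level (dashed line) in all 3 sets.

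Interferon response genes were mixed. Of 19 genes of the interferon gamma response, 12 had a higher mean in the T cell rich tumors and 4 had p under 0.05, CXCL10, GBP1, GBP6 and IDO1, with a list median of 0.25. GBP1, a guanylate binding protein active against intracellular microbes, read 10.17, 7.35, 8.55, 6.28 and 9.01 against 6.14, 4.89, 6.25, 5.82 and 7.71, a difference of 2.11 (standard error 0.74). Its T cell poor mean lay under the reporter level. IDO1, an enzyme that breaks down tryptophan and restrains T cells, read 11.27, 7.12, 9.86, 6.53 and 10.07 against 6.86, 7.01, 7.30, 6.76 and 6.98. It was thus high in 3 of the 5 T cell rich tumors and at the level of the T cell poor ones in the other 2, with a difference of 1.99 (standard error 0.83, adjusted p = 0.908). Interferon gamma itself (IFNG) was near background in both groups, with a difference of 0.02 (standard error 0.27). Of 26 type I interferon response genes, 20 had a higher mean in the T cell rich tumors and 6 had p under 0.05, with a median of 0.47. OAS1, an antiviral sensor of double-stranded RNA, differed by 1.25 (standard error 0.42), and the list mean ran from 6.90 to 7.23 in the T cell rich and from 5.78 to 7.51 in the T cell poor tumors.

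Most genes of inhibition and regulation were near background, and the median of the checkpoint list depended on the signal level. Of 21 checkpoint and exhaustion genes, 12 had a higher and 9 a lower mean, with a median of 0.01. The 6 members above the reporter level had a median of 0.83, against 0.08 for all genes above it. IDO1, described above, is also a member and had the largest difference of the list (1.99). CD80, a ligand of the T cell receptors CD28 and CTLA4 on presenting cells, read 7.87, 7.21, 7.63, 6.62 and 7.35 against 6.24, 6.88, 6.45, 6.67 and 6.71, a difference of 0.75 (standard error 0.25, adjusted p = 0.908), and its relative CD86 differed by 1.24 (standard error 0.59). The T cell poor mean of CD80 lay under the reporter level. TIGIT, an inhibitory receptor, had a lower mean in the T cell rich tumors (-0.45, standard error 0.19, near background), and CD200, a ligand that restrains macrophages, differed by -0.91 (standard error 0.42). PDCD1 and CTLA4, inhibitory receptors, and CD274, the ligand of PDCD1, had differences of 0.23, 0.01 and 0.06, all near background. FOXP3, the factor that defines regulatory T cells, differed by 0.16 (standard error 0.20), and 0 of 9 genes of that list had p under 0.05 in either direction.

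Macrophage genes parted in 2 ways. MRC1, a mannose receptor of tissue macrophages, read 9.01, 10.56, 9.13, 7.07 and 9.39 against 7.57, 6.73, 6.55, 8.28 and 7.10, a difference of 1.79 (standard error 0.59). MS4A7, a membrane protein of macrophages, read 8.25, 9.48, 7.45, 6.52 and 6.79 against 6.51, 5.34, 6.51, 6.25 and 5.89, with no overlap by a narrow margin and a difference of 1.60 (standard error 0.53). C1QB, a chain of complement C1q made by macrophages, differed by 1.52 (standard error 0.57). The defining markers had no p under 0.05. CD163, a scavenger receptor, differed by 1.52 (standard error 0.83), CSF1R, the receptor that keeps macrophages alive, by 0.44 (standard error 0.70), CD14, a receptor for bacterial lipopolysaccharide, by 0.35 (standard error 0.67), and CD68, a lysosomal protein of macrophages and osteoclasts, by -0.61 (standard error 1.18).

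One T cell rich tumor, that of dog 208513, lay far below the others in several of these genes. CD68 read 9.76, 11.24, 10.28, 5.25 and 11.27 in the T cell rich and 9.02, 10.45, 8.23, 11.34 and 11.82 in the T cell poor tumors, and that tumor was the lowest of the 15. CD14 read 10.17, 10.76, 10.10, 7.04 and 10.54 against 9.31, 9.02, 8.55, 10.10 and 9.91, again with that tumor the lowest. Without that tumor the differences were 0.47 for CD68, 1.02 for CD14 and 1.14 for CSF1R. Of the 25 measured macrophage and monocyte genes, 20 had a higher mean in the T cell rich tumors, 3 with p under 0.05, and the median was 0.91. The median was 1.20 without the tumor of dog 208513 and 0.38 without that of dog 180119, which had the highest CD163 (11.74). Of 14 dendritic cell genes, 6 had a higher mean and 1, LAMP3, a marker of mature dendritic cells near background here, had p under 0.05 (1.70, standard error 0.51). How far the share of macrophages moves the MHC class II values was not tested.

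B cell markers were near background, and the segments of antigen receptors held some of the widest differences. MS4A1, the B cell antigen CD20, CD79A and CD79B, signaling chains of the B cell receptor, had differences of -0.08, -0.39 and 1.46. That of CD79B was -0.56 without the T cell poor tumor of dog 212759. CD38, an enzyme of plasma cells and activated lymphocytes, was the only one of 19 B and plasma cell genes with p under 0.05, at 6.89, 6.41, 9.52, 4.60 and 6.99 against 5.46, 3.71, 4.60, 4.36 and 6.04. A list of 16 genes that RefSeq types as constant regions or variable segments of antigen receptors was added after the values were seen. Of these, 12 had a higher mean in the T cell rich tumors, 5 with p under 0.05 and 1 with no overlap. Only 3 of the 16 were above the reporter level. The differences ran from -3.70 to 7.06, with both extremes in genes near background. LOC608238, a constant region, was bright, at 13.03, 11.63, 10.87, 11.45 and 11.25 in the T cell rich and 8.59, 3.98, 7.63, 2.48 and 11.42 in the T cell poor tumors. It was high in all 5 T cell rich tumors and in the T cell poor tumor of dog 208911, and the difference was 4.83 (standard error 1.48, adjusted p = 0.908). LOC491494, a variable segment near background, had no overlap, with means of 6.98 ± 0.31 and 6.31 ± 0.14 (SD, n = 5 each). Such segments have near-identical copies that can share probes, so their values are uncertain by gene, and whether B cells, plasma cells or T cells gave the signal cannot be told apart here.

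SAA1, an acute phase protein made under inflammation, was named after its values were seen. It read 11.51, 9.04, 12.62, 10.37 and 10.99 in the T cell rich tumors and 6.56, 2.75, 10.27, 5.90 and 5.20 in the T cell poor tumors, where only that of dog 173175 reached the T cell rich range. The difference was 4.77 (standard error 1.22, adjusted p = 0.908), and the T cell poor mean lay under the reporter level.

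Among genes with the lower mean in the T cell rich tumors, ALPL was the one of the bone lists with p under 0.05. ALPL, tissue nonspecific alkaline phosphatase, an enzyme of osteoblasts needed for mineralization, read 10.19, 9.09, 8.48, 11.32 and 7.82 in the T cell rich and 12.15, 10.67, 13.12, 12.60 and 10.82 in the T cell poor tumors. The tumor of dog 208513 had a value inside the T cell poor range, and the difference was -2.49 (standard error 0.72), a fold of 5.63 in favor of the T cell poor tumors, with an adjusted p of 0.908. It was -4.02 within the DFI < 100 and -0.47 within the DFI > 300 cohort. The other osteoblast markers overlapped, with differences of -1.89 (standard error 1.54) for BGLAP (osteocalcin), -0.58 (standard error 0.72) for IBSP (bone sialoprotein) and 0.23 (standard error 0.44) for RUNX2, the transcription factor of the lineage. Of 17 osteoblast and bone matrix genes, 13 had a lower mean in the T cell rich tumors, with a median of -0.14.

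Osteoclast genes turned on 1 tumor. ACP5, the tartrate resistant acid phosphatase of osteoclasts, read 12.14, 12.31, 11.57, 1.01 and 12.68 in the T cell rich and 11.07, 12.34, 11.19, 12.77 and 13.05 in the T cell poor tumors, while CTSK, the collagen cutting protease of osteoclasts, differed by -0.53 (standard error 0.66). The tumor of dog 208513 was the lowest of all 15 in both. Of 16 osteoclast genes, 11 had a lower mean in the T cell rich tumors and 0 had p under 0.05, with a median of -0.35 that became 0.20 without that tumor. The difference of ACP5, -2.14 (standard error 2.04), became 0.09.

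**Figure D4:**
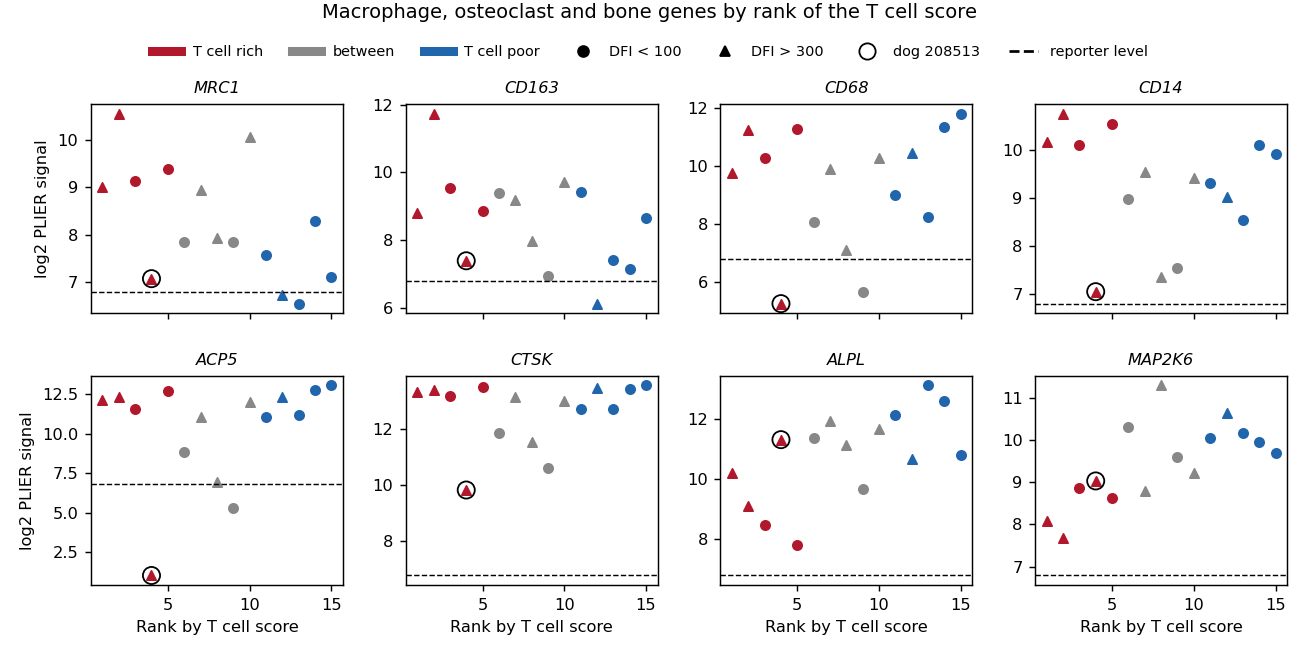
Log2 PLIER signal (vertical axis) against rank by T cell score (horizontal axis, 1 the highest) for macrophage (MRC1, CD163, CD68, CD14), osteoclast (ACP5, CTSK) and bone genes (ALPL) and MAP2K6 in the 15 tumors. The T cell rich tumor of dog 208513 (ringed) is the lowest of the 15 for CD68, CD14, ACP5 and CTSK, and MAP2K6 is lower in all 5 T cell rich than in all 5 T cell poor tumors.

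Most endothelial genes had lower means in the T cell rich tumors, with no member under an unadjusted 0.05. This held for 21 of 23, and the median was -0.25, with -0.51 without the tumor of dog 212759 and -0.11 without that of dog 208911. PECAM1, CDH5, both junction proteins, and VWF, a clotting factor of endothelium, had differences of -0.57, -0.22 and -0.25, and the list mean ran from 6.10 to 7.07 in the T cell rich and from 6.02 to 8.13 in the T cell poor tumors. Cell cycle genes went the other way. Of 27, 24 had a higher mean in the T cell rich tumors and 3 had p under 0.05 (RRM2, AURKA and MCM4, of nucleotide supply, the spindle and replication), with a median of 0.47 that was 0.21 without the tumor of dog 208513. TYMS, which makes thymidylate for DNA, was lower in all 5 T cell rich than in all 5 T cell poor tumors, at 10.25, 10.43, 10.76, 10.66 and 10.30 against 11.76, 10.78, 10.97, 10.91 and 10.83, a difference of -0.57 (standard error 0.22).

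The remaining lists had medians between -0.13 (skeletal muscle) and 0.36 (neutrophil), the latter -0.23 without the tumor of dog 180119. A pair of smooth muscle genes, MYL9 (0.88) and TAGLN (1.26), had p under 0.05 with higher means in the T cell rich tumors. So did TFRC, the transferrin receptor (1.03, standard error 0.31), listed with erythroid genes. The adipocyte, fibroblast, glycolysis and oxidative phosphorylation lists each held 1 member with p under 0.05 and a higher mean. The skeletal muscle and erythroid lists each held 1 with a lower mean. Defining markers of other tissues did not separate the groups. ACTA1 of skeletal muscle, ADIPOQ and PLIN1 of fat, ALAS2 of red cell precursors and S100A8 and S100A9 of neutrophils differed by -0.0012, -0.26, -0.02, 0.35, 0.36 and 0.32, none with p under 0.05. MYLPF, also of skeletal muscle, differed by 0.33, and CSF3R, also of neutrophils, went the other way from S100A8 and S100A9 at -0.27. WNT16, a ligand of WNT signaling near background, was lower in all 5 T cell rich than in all 5 T cell poor tumors (-0.85, standard error 0.26). Of the 39 defining markers other than the scoring genes, 7 have no probeset of their own in the annotation used.

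**Figure D5:**
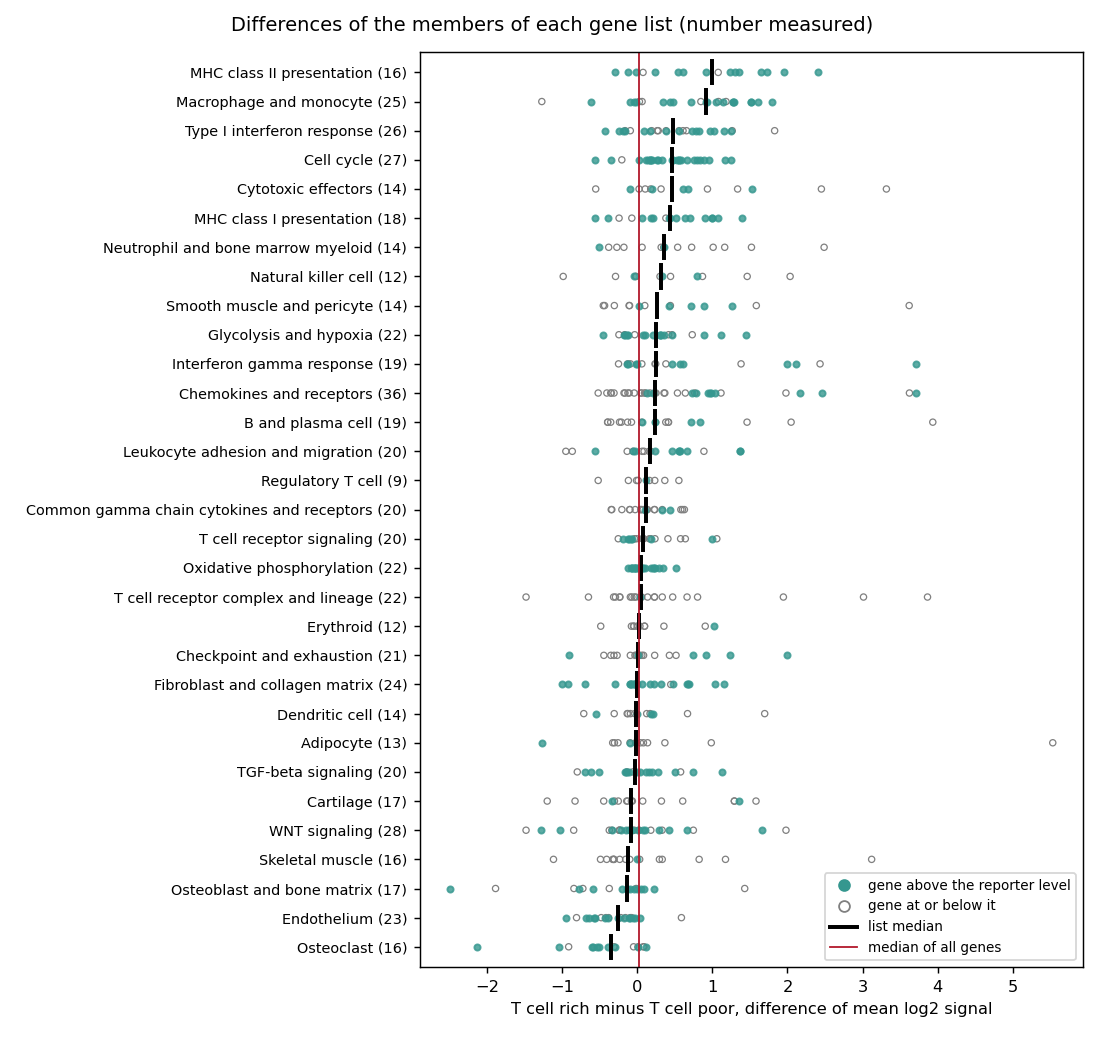
Difference of mean log2 signal, T cell rich minus T cell poor (horizontal axis), of each measured member of 31 gene lists (rows, number of members in parentheses), with list medians (black bars) and the median of all genes (red line). MHC class II presentation (1.0) and macrophage and monocyte genes (0.91) have the highest medians and osteoclast (-0.35) and endothelial genes (-0.25) the lowest.

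By the smallest p among genes above the reporter level, the 12 genes with higher means in the T cell rich tumors were PSMF1, DLA-DMA, DLA-DQB1, RANGRF, ARMC1, DLA-DQA1, ADSL, LOC488622, DLA-DMB, ZDHHC13, MORC2 and PYCARD. Genes were taken by their mean over the 10 tumors, and PSMF1 and PYCARD passed only through the T cell rich tumors, their T cell poor means of 6.64 and 6.44 being under the reporter level. PSMF1, an inhibitor of the proteasome, read 7.82, 7.47, 7.82, 7.84 and 7.84 against 6.23, 6.81, 7.07, 6.78 and 6.33, a difference of 1.11 (standard error 0.20, adjusted p = 0.908) with no overlap. Its other probeset, near background, differed by only 0.17. RANGRF, a cofactor of the nuclear transport protein Ran, read 9.08, 8.56, 9.17, 8.39 and 9.32 against 7.32, 7.28, 7.81, 8.16 and 7.39, also with no overlap (1.31, standard error 0.25). PYCARD, the adaptor of inflammasomes, differed by 1.20 (standard error 0.31). ARMC1, a protein of mitochondria, ADSL, an enzyme of purine synthesis, ZDHHC13, a palmitoyltransferase, and MORC2, a silencer of chromatin, differed by 1.14, 0.90, 0.69 and 0.60, and LOC488622 by 0.87.

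By the same rule the 12 genes with lower means were MAP2K6, BAG3, COLEC12, ECI1, MEF2C, CD9, SHC1, ALPL, MGLL, MANSC1, TTBK2 and ZRANB1. Here MGLL and ZRANB1 passed only through the T cell poor tumors, with T cell rich means of 6.50 and 6.69. MAP2K6, a kinase that activates p38, read 8.09, 7.68, 8.86, 9.03 and 8.62 in the T cell rich and 10.04, 10.64, 10.16, 9.95 and 9.69 in the T cell poor tumors, with no overlap. The difference was -1.64 (standard error 0.29, adjusted p = 0.908), and all 4 of its probesets were lower in the T cell rich tumors. The 5 tumors between the groups read 10.30, 8.79, 11.29, 9.59 and 9.21, from inside the T cell rich range to above all T cell poor tumors. BAG3, a partner of heat shock protein 70, read 8.01, 8.87, 8.77, 8.52 and 8.52 against 9.94, 10.23, 10.16, 8.90 and 10.28 (-1.36, standard error 0.29), with no overlap. COLEC12, a scavenger receptor, read 7.95, 9.07, 8.71, 8.64 and 7.48 against 9.74, 10.24, 11.20, 10.03 and 9.49 (-1.77, standard error 0.39), also with no overlap.

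MEF2C, a transcription factor of muscle, bone and lymphoid cells, and CD9, a tetraspanin, had no overlap either, with differences of -1.18 (standard error 0.32) and -0.85 (standard error 0.24). ECI1, an enzyme of fatty acid oxidation, TTBK2, a kinase needed for cilia, and ZRANB1, a deubiquitinase, also did not overlap (-0.67, -0.62 and -1.22). SHC1, an adaptor of growth factor receptors, MGLL, which breaks down monoacylglycerols, and MANSC1 did, with -0.67, -1.13 and -1.14. Other probesets of some of these genes differed less. Those of MEF2C ran from -1.05 to -0.41 and those of SHC1 from -0.79 to 0.03. Those of TTBK2 differed by -0.21 and -0.27, and that of ZRANB1 by -0.49.

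Over all 15 tumors, the 10 genes above the reporter level with the highest Pearson r with the score were DLA-DMA (0.84), IFT52 (0.81), DLA-DMB (0.80), DLA-DQB1 (0.80), PSMF1 (0.78), RGS1 (0.76), UBE2L6 (0.75), NT5C3A (0.75), DLA-DQA1 (0.75) and MS4A7 (0.75). The T cell poor means of PSMF1, MS4A7 and NT5C3A lay under the reporter level. These values are a description, since 10 of the 15 tumors are those compared above. DLA-DMA read 9.06, 7.63, 7.58, 8.33 and 8.63 in the 5 tumors between the groups, so that these ranged from inside the T cell poor to inside the T cell rich tumors. RGS1, a regulator of G protein signals in lymphocytes, read 10.65, 10.51, 9.60, 9.31 and 9.31 against 8.87, 7.72, 7.71, 8.87 and 9.06. UBE2L6, which conjugates the interferon induced protein ISG15, read 9.40, 9.40, 9.22, 9.39 and 9.21 against 9.18, 8.96, 8.14, 8.53 and 8.63, so that the T cell rich tumors lay closer together than the T cell poor ones. IFT52, of the transport in cilia, read 10.24, 9.31, 9.83, 9.50 and 9.56 against 9.20, 9.10, 8.73, 8.81 and 8.68, and NT5C3A, a nucleotidase, had means of 7.05 ± 0.19 and 6.66 ± 0.14 (SD, n = 5 each).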

How the data were processed

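Total RNA of 15 tumors was hybridised by the authors to Affymetrix Canine 2.0 arrays, 1 per dog, in batches that are not given by array in the sources used here. As deposited by the authors, the values are linear intensities, with PLIER used to give 1 signal for each probeset, made in Affymetrix Expression Console (version not given). The normalization before PLIER is not given either, and RMA values were not analysed here. Precision is limited by the number of arrays.

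Values were log2 transformed without an offset. From 43035 probesets, 175 controls and the 4 probesets of CD3E and CD8A were left out, and 42856 were tested with limma 3.58.1 in R 4.3.3 (linear model, moderated test, 2-sided, Benjamini-Hochberg) on the 5 highest against the 5 lowest tumors by score. Of these, 29250 carry 1 gene symbol in GEO's platform annotation, 439 several and 13167 none, and 94.6% of single-symbol probesets had a gene ID in the RefSeq table. Each gene was read from its brightest probeset. RefSeq (assembly UU_Cfam_GSD_1.0) was used for names and gene types only, and no sequence is shown.

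The members and the 31 gene lists were chosen with earlier results of these data known, and 1 list was added after the values were seen. Genes named are the 12 higher and 12 lower with the smallest p above the reporter level, up to 5 members of each list described, defining markers and the 10 genes most like the score. SAA1 and some list members were named after their values were seen. Each dog gave 1 tumor. Steps were tested on simulated data. The alternatives were the methods' t-test, a trend and robust fit, 16 added before log2, quantile normalization, only probesets above the reporter level, all 15 tumors in 3 sets, a slope on the score, the 4 or 7 highest against lowest, cohort or the 3 prime to 5 prime ratio as a covariate, CD3E or CD8A alone, and each tumor left out. Groups by the 6 other T cell markers and a test of score by cohort were added after the data were seen.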

Additional observations from a re-analysis of the deposited data

Results flagged for a closer look

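In 222 groups of 5 tumors, 1 for each gene described and each set, a tumor that stood far from the other 4 was looked for by Dixon's ratio, with a critical value of 0.71. Such a tumor was found in 17 of these groups, where chance alone gives about 11.1, and some tumors were flagged for several genes.

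The T cell rich tumor of dog 208513 was far below the other T cell rich tumors for ACP5 at 1.01 (next 11.57), CTSK at 9.83 (next 13.16), CD14 at 7.04 (next 10.10), CD68 at 5.25 (next 9.76) and B2M at 12.06 (next 13.07). The first 4 are genes of osteoclasts or macrophages, and the same tumor had a score of 5.35 and a GZMK value of 5.13, inside the range of the other T cell rich tumors. The T cell rich tumor of dog 188084, the only poorly differentiated one, was far above the others for NKG7 at 11.29 (next 7.33), LCK at 7.37 (next 4.79) and MS4A1 at 4.59 (next 4.08).

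The T cell rich tumor of dog 180119 was the lowest for PSMF1 at 7.47 and ARMC1 at 7.67, and that of dog 223986 for PYCARD at 6.59. Among the T cell poor tumors, that of dog 212759 was far above the others for TYMS at 11.76 and far below them for CD79B at -7.28, a value under background. That of dog 204714 was the lowest for BAG3 at 8.90 and B2M at 12.35, that of dog 190030 for CD96 at 2.61, and that of dog 173175 for MORC2 at 7.85.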

How the results depend on the processing

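Of the 14 alternatives without a left-out tumor, 12 gave 0 probesets with an adjusted p under 0.05, as the limma fit did, and 1 was called with the score from CD8A alone (LOC486377, near background) and 1 with groups by the 6 other T cell markers (NAPSA, near background), which was chosen after the data were seen. With each tumor left out it was 0 to 3, the 3 without the T cell rich tumor of dog 188084 and again without the T cell poor tumor of dog 208911, and 1 without those of dogs 180119, 223986, 208513 and 204714. Genes with the higher mean at an unadjusted p under 0.05 numbered 477, or 242 among probesets above the reporter level and 812 with groups by the other T cell markers, and 344 to 592 with a tumor left out. Those with the lower mean numbered 285, or 461 with quantile normalization and 93 above the reporter level, and 231 to 321. The methods' t-test, at the same threshold, gave 463 higher and 383 lower genes. Genes without overlap, 78 higher and 75 lower, numbered 38 and 26 above the reporter level, where fewer genes are tested, 290 and 208 with 4 tumors against 4, and 5 and 6 with 7 against 7, where the number of tumors itself changes the count. They numbered 122 higher with CD8A alone, 214 higher and 48 lower with the other T cell markers, 130 lower with quantile normalization, and 111 to 201 and 110 to 178 with a tumor left out. The cause of the shifts was not tested.

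Of 82 described genes with a difference above its standard error, 4 changed sign under an alternative. These were PRF1 (0.051) and ADIPOQ (0.50) with 7 tumors against 7, and CSF3R (0.052) and NCR1 (0.035) with the score from CD3E alone. ACP5 changed sign with 1 left-out tumor, its values running from -2.82 to 0.094. Of list medians, that of glycolysis and hypoxia, 0.25, was -0.032 with CD8A alone and -0.13 with the other T cell markers. With only probesets above the reporter level, the checkpoint and exhaustion median, 0.01, was 0.83. That of chemokines and receptors, 0.24, was 0.97 in the same setting. The number of tumors, 5 in each group, and signals of CD3E and CD8A near background limit the comparison, and no paired analysis was possible because each dog gave 1 tumor. An interaction of score and cohort, added after the data were seen, gave 0 of 42856 probesets with an adjusted p under 0.05 and 1918 unadjusted from limma.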
